A study of Mus musculus with 6 samples.

Results

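The genes described here encode the laminins, the nidogens and the large heparan sulfate proteoglycans of the basement membrane. There are 10 of them among the 17556 genes of the expression table, namely the laminin chains *Lama2*, *Lama4*, *Lama5*, *Lamb1*, *Lamb2* and *Lamc1*, the nidogens *Nid1* and *Nid2*, and the proteoglycans *Hspg2* (perlecan) and *Agrn* (agrin). They were taken from the table by gene symbol, and all 10 were found. All 10 also passed the filter on low counts, as did 13817 genes in all.

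RNA was sequenced from 6 mouse left ventricle samples taken at 4 days post injury (dpi), after permanent ligation of the left anterior descending artery. The mice were 6 to 10 weeks old, carried floxed *Yap* on both alleles and floxed *Wwtr1* on 1 allele, and were fed tamoxifen citrate chow from the end of surgery. Those of the 3 Cre_pos samples also carried MerCreMer, a tamoxifen-activated Cre recombinase, expressed from the endogenous periostin promoter (*Postn* MCM), whereas the siblings in the 3 Cre_neg samples had wildtype periostin. The comparison asks how the injured ventricle differs when myofibroblasts, the cells that express periostin after an infarct, lose *Yap* and a copy of *Wwtr1*, the transcriptional coactivators of the Hippo pathway. Whole ventricles were measured while the driver acts in periostin-expressing cells, and uninjured hearts and mice with the Cre but no floxed allele are not analysed here. In such bulk RNA, fewer cells of a type and less RNA per cell cannot be told apart.

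Basement membranes are thin sheets of matrix that surround each cardiomyocyte and lie under the endothelium of every vessel. Laminins are trimers of an alpha, a beta and a gamma chain. They assemble into a network on the cell surface, where integrins and dystroglycan hold them, and nidogens and perlecan link that network to the network of type IV collagen. *Lama2* encodes the alpha chain of the laminins around muscle fibres, while *Lama4* and *Lama5* encode those of the vessel wall.

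The estimated counts summed to between 13177888 and 14827579 per ventricle. Groups were compared in normalised counts, that is estimated counts scaled by edgeR's TMM factors to a library of average size. Levels of different genes were compared only in TPM, a unit scaled to transcript length and library size. The means of the targeted genes were not lower in the Cre_pos ventricles. *Yap1* had 1547, 1473 and 1419 normalised counts in Cre_neg replicates 1 to 3 and 1615, 1436 and 1474 in Cre_pos replicates 1 to 3, and *Wwtr1* had 1616, 1463 and 1604 against 1614, 1559 and 1661. These are counts over the whole gene in the whole ventricle and do not single out the floxed exons or the periostin-expressing cells. *Postn* itself had 12157, 24639 and 26862 normalised counts in the Cre_neg ventricles and 12682, 14240 and 13486 in the Cre_pos ventricles, so Cre_neg replicate 1 lay below every Cre_pos ventricle. The ventricles carried the markers of heart muscle, with all 8 cardiomyocyte markers detected. Cre_neg replicate 1 stood apart from the other ventricles in several marker lists, and Cre_pos replicate 3 alone held the lung secretory transcript *Scgb1a1* at 66.3 TPM against 0.34 to 1.64 TPM elsewhere.

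All 10 genes were well expressed in the infarcted ventricle, and their levels formed 3 tiers. The laminin gamma chain *Lamc1*, which pairs with nearly every alpha and beta chain, had the highest mean level at 139 ± 19.4 TPM (SD, n = 6). It was followed by *Hspg2* at 134 ± 15.2 TPM, *Lamb2* at 134 ± 5.25 TPM and *Nid1* at 131 ± 18.7 TPM, and the ranges of neighbours in this tier overlapped over the 6 ventricles. *Lamb1* at 67.9 ± 12.9 TPM and *Lama4* at 58.4 ± 11.2 TPM formed the middle tier, and *Lamb1* was apart from *Nid1* in all ventricles. The lowest tier held *Nid2* at 26.9 ± 5.94 TPM, *Lama2* at 25.1 ± 1.76 TPM, *Agrn* at 23.1 ± 3.35 TPM and *Lama5* at 22.7 ± 2.70 TPM, whose ranges overlapped. *Nid2* was in turn apart from *Lama4*. By mean TPM, *Lamc1* stood at the 92.0 percentile of all genes tested and *Lama5*, the lowest, at the 60.2 percentile.

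**Figure D1:**
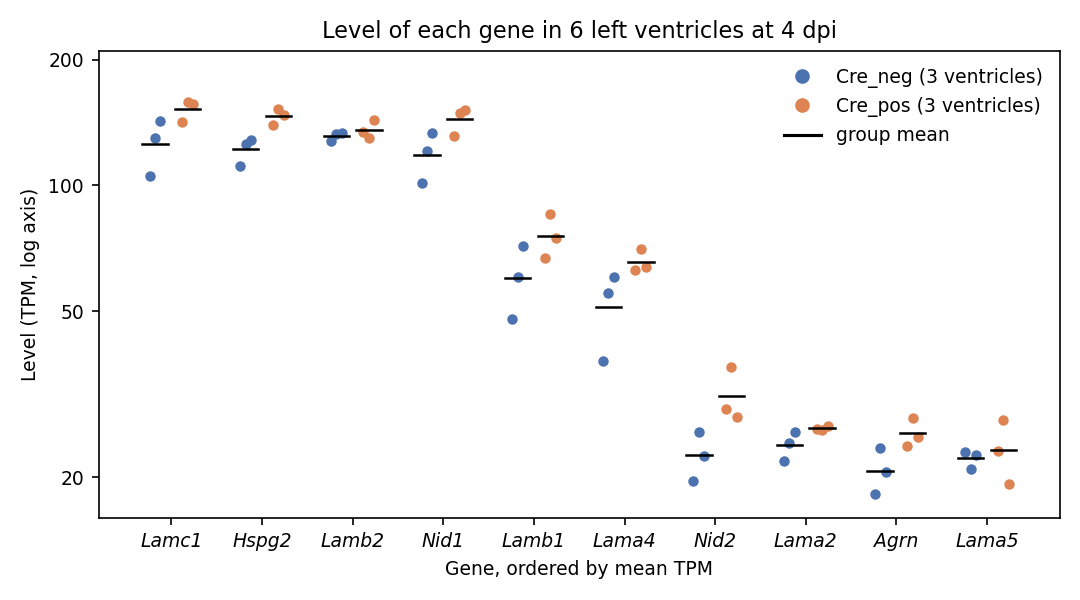
Level of each gene in TPM on a log axis, with 1 point per ventricle, Cre_neg in blue, Cre_pos in orange and the group mean as a bar. *Lamc1*, *Hspg2*, *Lamb2* and *Nid1* lie between 101 and 158 TPM, and *Nid2*, *Lama2*, *Agrn* and *Lama5* between 18.2 and 36.7 TPM.

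The promoters of 7 of the 10 genes were in the RefSeq table used here (GRCm38.p6), as 8 windows. *Lama4*, *Lamc1* and *Nid2* had no window there and were not searched. They were searched because *Yap* and *Wwtr1* act through TEAD factors, whose core motif is GGAATG, and because many matrix genes have GC boxes, GGGCGG. Both strands were searched over the 250 bases before the start, and overlapping matches were counted separately. GGAATG was found in 1 of the 7 genes, *Nid1*, where it began 165 bases before the start, and in 12.6% of all 32851 windows. GGGCGG was found in 5 of the 7 genes (*Lama5*, *Lamb1*, *Nid1*, *Hspg2* and *Agrn*) and in 32.7% of all windows. These shares are per window and not per gene, and both windows of *Agrn* held GGGCGG. GC content ran from 43.6% in *Lamb2* and 47.2% in *Lama2* to 70.0% in *Hspg2*, 72.4% in *Lama5* and 83.6% in the outer window of *Agrn*, with a median of 52.4% over all windows. A match is a description of the letters and not a binding site. Shown are *Nid1*, for its GGAATG, *Hspg2* and *Agrn*, whose groups did not overlap, and *Lamb2*, whose log2 fold change in normalised counts was below 0, each only as far as the window lies outside the gene, with matches to either motif in capitals.
Nid1, chr13:13437352-13437601, + strand: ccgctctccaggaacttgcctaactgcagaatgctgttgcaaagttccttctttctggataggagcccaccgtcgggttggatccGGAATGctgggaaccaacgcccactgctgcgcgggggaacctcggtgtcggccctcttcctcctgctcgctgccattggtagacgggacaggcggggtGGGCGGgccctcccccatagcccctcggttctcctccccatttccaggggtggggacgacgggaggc
Hspg2, chr4:137468553-137468750, + strand: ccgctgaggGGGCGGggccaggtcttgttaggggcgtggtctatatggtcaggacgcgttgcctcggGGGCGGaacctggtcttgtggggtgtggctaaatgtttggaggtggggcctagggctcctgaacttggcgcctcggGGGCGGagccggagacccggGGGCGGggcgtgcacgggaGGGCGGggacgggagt
Agrn, chr4:156197534-156197738, - strand: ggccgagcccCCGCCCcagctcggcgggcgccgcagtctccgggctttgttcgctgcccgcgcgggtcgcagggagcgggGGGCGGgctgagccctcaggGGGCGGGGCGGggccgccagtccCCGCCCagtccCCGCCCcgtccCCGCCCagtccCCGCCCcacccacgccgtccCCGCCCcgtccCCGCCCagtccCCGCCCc
Lamb2, chr9:108479612-108479846, + strand: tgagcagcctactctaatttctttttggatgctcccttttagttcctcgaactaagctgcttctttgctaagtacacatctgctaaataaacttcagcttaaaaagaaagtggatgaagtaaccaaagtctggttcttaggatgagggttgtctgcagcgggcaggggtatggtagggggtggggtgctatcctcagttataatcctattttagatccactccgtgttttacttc

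None of the 10 genes passed an adjusted p of 0.05 in edgeR's quasi-likelihood test, and none did in DESeq2 or limma. In edgeR 1 gene of all those tested passed, the guanylate-binding protein gene *Gbp2b*, which is 0.00724% of them. Of the 10 genes, 8 had a positive log2 fold change of Cre_pos over Cre_neg and 2 a negative one, and their median was 0.16 beside 0.01 over all genes tested, of which 51.2% were positive. At an unadjusted p under 0.05, *Nid2* and *Agrn* were higher in Cre_pos, beside 2.85% of all genes, and none was lower, beside 2.98%. The normalised counts of all 3 Cre_pos ventricles lay above all 3 Cre_neg ventricles for 4 genes (*Lama4*, *Nid2*, *Hspg2* and *Agrn*), beside 7.55% of all genes, and below them for 0 genes, beside 6.85%. The labels number the ventricles without naming the mouse behind each, so p-values measure the spread between these samples, and with 3 against 3 the exact two-sided permutation test over ventricles cannot give a p under 0.1.

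**Figure D2:**
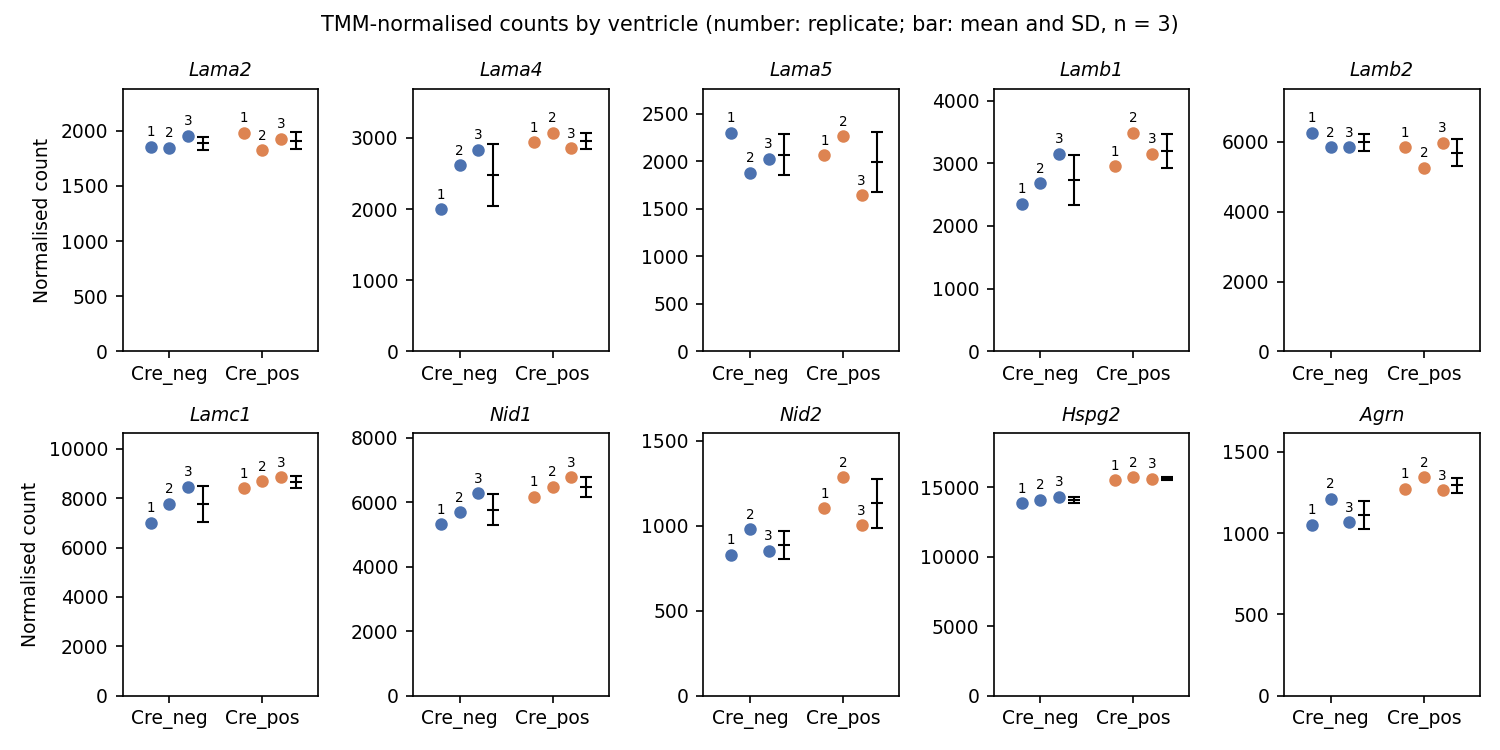
Normalised counts of each gene by ventricle, with linear axes from 0, replicate numbers above the points and the mean and SD of each group (n = 3) at the side. The groups do not overlap for *Lama4*, *Nid2*, *Hspg2* and *Agrn*, and Cre_neg replicate 1 is the lowest point in 7 of the 10 panels.

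Among the alpha chains, *Lama4* was higher in Cre_pos, *Lama2* hardly differed and *Lama5* varied most among the Cre_pos ventricles, though none passed the test. *Lama4* (chr10:38965515-39110188, GRCm38.p6) encodes the short alpha chain of vascular laminins. It had 1995, 2615 and 2834 normalised counts in Cre_neg replicates 1 to 3 and 2941, 3072 and 2857 in Cre_pos replicates 1 to 3. The lowest Cre_pos ventricle was just above the highest Cre_neg ventricle, and the spread within Cre_neg was larger than the gap. Its log2 fold change was 0.25 (SE 0.14, unadjusted p = 0.101, adjusted p = 0.714, edgeR quasi-likelihood test), and it was 0.11 without Cre_neg replicate 1. *Lama5* (chr2:180176373-180225904) encodes the long alpha chain of mature endothelial and epithelial basement membranes. It had 2302, 1881 and 2028 normalised counts in Cre_neg and 2068, 2265 and 1646 in Cre_pos. The highest value was in Cre_neg replicate 1 and the lowest in Cre_pos replicate 3, and its log2 fold change of -0.05 (SE 0.14, adjusted p = 0.916) changed sign when either was left out and on the log2(TPM + 1) scale. *Lama2* (chr10:26981285-27617191), the muscle alpha chain whose loss causes a congenital muscular dystrophy, was the steadiest of the 10 genes in normalised counts, from 1824 to 1982 over all 6 ventricles. Its fold change was 1.01, with a 95% confidence interval from 0.889 to 1.16.

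Of the beta chains, *Lamb1* was higher and *Lamb2* lower in Cre_pos in normalised counts, by amounts within the spread of the groups, and the sign of *Lamb2* turned on the log2(TPM + 1) scale (0.0434, below the median of all genes there). *Lamb1* (chr12:31265146-31329644) encodes the beta chain of embryonic and many vascular laminins. It had 2356, 2680 and 3152 normalised counts in Cre_neg and 2955, 3487 and 3153 in Cre_pos. Cre_neg replicate 3 lay above Cre_pos replicate 1, so the groups overlapped, and the log2 fold change was 0.23 (SE 0.13, adjusted p = 0.714), or 0.13 without Cre_neg replicate 1. *Lamb2* (chr9:108479847-108490530) encodes another laminin beta chain. It had 6256, 5840 and 5847 normalised counts in Cre_neg and 5846, 5257 and 5966 in Cre_pos. The highest value was in Cre_neg replicate 1 and the lowest in Cre_pos replicate 2, the reverse of *Lamb1*. Its fold change was 0.951, with a 95% confidence interval from 0.814 to 1.11. The gamma chain *Lamc1* (chr1:153218922-153332786) had 7011, 7777 and 8469 normalised counts in Cre_neg and 8405, 8698 and 8864 in Cre_pos. Cre_neg replicate 3 lay above Cre_pos replicate 1, and the log2 fold change was 0.16 (SE 0.11, adjusted p = 0.717), or 0.09 without Cre_neg replicate 1.

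The nidogens bridge laminin and type IV collagen, and *Nid2* had the largest log2 fold change of the 10 genes. *Nid2* (chr14:19751257-19811787) had 829.9, 979 and 852.6 normalised counts in Cre_neg and 1104, 1287 and 1004 in Cre_pos. Its groups did not overlap, with Cre_pos replicate 3 only just above Cre_neg replicate 2 and Cre_pos replicate 2 well above the rest. The log2 fold change was 0.35 (SE 0.12), a fold of 1.28 with a 95% confidence interval from 1.05 to 1.54, with an unadjusted p of 0.0191 and an adjusted p of 0.714 in edgeR's quasi-likelihood test. The exact permutation p was 0.1, the smallest the design allows. Without Cre_pos replicate 2 the log2 fold change was 0.25 and the unadjusted p 0.0734. The last 386 bases of *Nid2* by coordinate are shared with *Rtraf*, a gene with a mean of 134 TPM and a log2 fold change of -0.08 (SE 0.08), and whether the counting used strand is not given in the sources used here. *Nid1* (chr13:13437602-13512275), the more abundant nidogen, ranged from 5320 to 6290 normalised counts in Cre_neg and from 6168 to 6785 in Cre_pos, which overlap. Its log2 fold change was 0.17 (SE 0.10, adjusted p = 0.714), or 0.11 without Cre_neg replicate 1.

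Both proteoglycans were higher in every Cre_pos ventricle than in any Cre_neg ventricle, without passing the adjusted test. *Hspg2* (chr4:137468751-137570630) encodes perlecan, which carries heparan sulfate and stores growth factors in the vessel wall. It had 13885, 14111 and 14328 normalised counts in Cre_neg and 15526, 15753 and 15641 in Cre_pos. These were the tightest groups of any of the 10 genes, with coefficients of variation of 1.57% and 0.726%, and the log2 fold change was 0.15 (SE 0.10, unadjusted p = 0.164, adjusted p = 0.714, edgeR). It was between 0.13 and 0.16 when each ventricle in turn was left out. *Agrn* (chr4:156165290-156197533) encodes agrin, which clusters acetylcholine receptors at the neuromuscular junction and binds dystroglycan. It had 1052, 1212 and 1068 normalised counts in Cre_neg and 1274, 1345 and 1263 in Cre_pos. Cre_neg replicate 2 came close to the lowest Cre_pos ventricle, and the log2 fold change was 0.22 (SE 0.09, unadjusted p = 0.0405, adjusted p = 0.714, edgeR), a fold of 1.16 with a 95% confidence interval from 1.01 to 1.34. The exact permutation p was 0.1 for *Lama4*, *Hspg2* and *Agrn* alike.

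**Figure D3:**
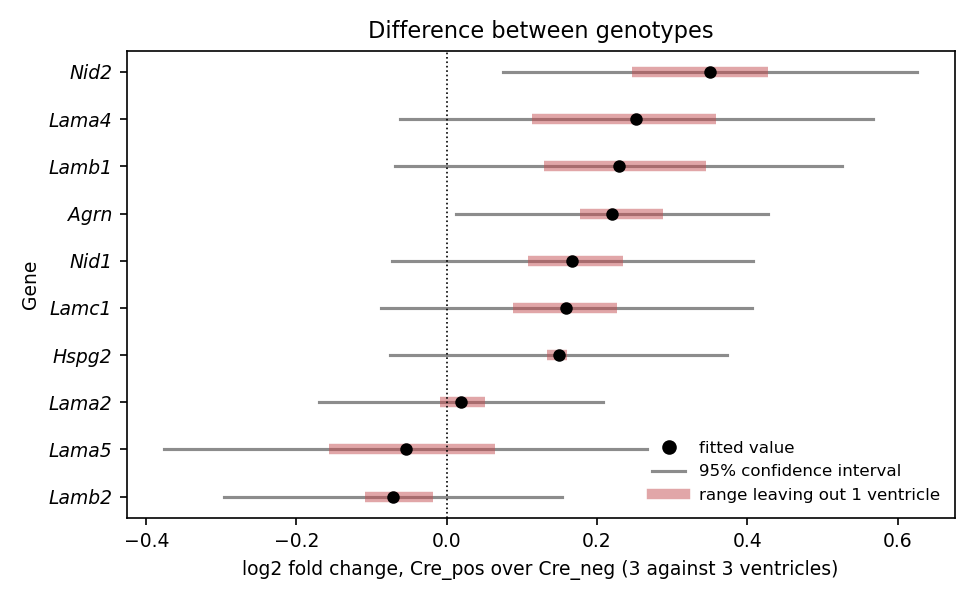
Log2 fold change of Cre_pos over Cre_neg for each gene (black point), with its 95% confidence interval (grey line) and the range of values when each ventricle in turn was left out (red band). The intervals of *Nid2* and *Agrn* lie above 0, those of the other 8 genes include 0, and the bands of *Lama2* and *Lama5* cross 0.

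Because a laminin needs 1 chain of each class, the levels of the classes were set side by side within each ventricle in TPM. Summed over all alpha chains the level was 83.6, 102 and 110.0 TPM in Cre_neg replicates 1 to 3 and 114, 125 and 112 TPM in Cre_pos replicates 1 to 3. The beta chains summed to between 180.0 and 222 TPM and the gamma chains to between 112 and 169 TPM. In every ventricle the beta chains had the highest sum and the alpha chains the lowest, with 1.93 ± 0.143 beta per alpha transcript and 1.37 ± 0.053 gamma per alpha transcript (SD, n = 6). The ratio of *Lamc1* to *Nid1* was the least variable of the ratios examined, from 1.03 to 1.08 over the 6 ventricles. TPM sums must be read against a general shift between the groups, since the median log2 fold change over all genes was 0.11 on the log2(TPM + 1) scale and 0.01 in normalised counts. The shares and ratios that follow are taken within a ventricle and do not depend on its scale.

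*Lama4* made up the largest share of alpha-chain transcripts in all 6 ventricles. It held 45.4%, 54.4% and 54.9% in Cre_neg replicates 1 to 3 and 55.1%, 56.3% and 57.1% in Cre_pos replicates 1 to 3. The groups did not overlap, but Cre_neg replicates 2 and 3 lay within 1 percentage point of Cre_pos replicate 1, and the difference of the means was 4.6 percentage points with all ventricles and 1.51 without Cre_neg replicate 1. *Lama2* held 24.5 ± 1.5% in Cre_neg and 22.5 ± 1.61% in Cre_pos, and *Lama5* held 22.9 ± 3.98% and 19.8 ± 2.32% (SD, n = 3), a difference of -3.11 percentage points that was -0.812 without Cre_neg replicate 1. Both chains overlapped between the groups. There were 1.73, 2.29 and 2.35 *Lama4* transcripts per *Lama2* transcript in Cre_neg and 2.40, 2.72 and 2.40 in Cre_pos. *Lamb2* was the main beta chain in every ventricle, with 71.2%, 67.0% and 63.9% of beta transcripts in Cre_neg and 65.5%, 59.2% and 64.5% in Cre_pos, and the groups overlapped. *Lamc1* made up between 93.3% and 95.2% of gamma-chain transcripts. For the nidogens, there were between 0.168 and 0.247 *Nid2* transcripts per *Nid1* transcript, and for the proteoglycans between 5.37 and 6.23 *Hspg2* transcripts per *Agrn* transcript, again with overlapping groups.

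**Figure D4:**
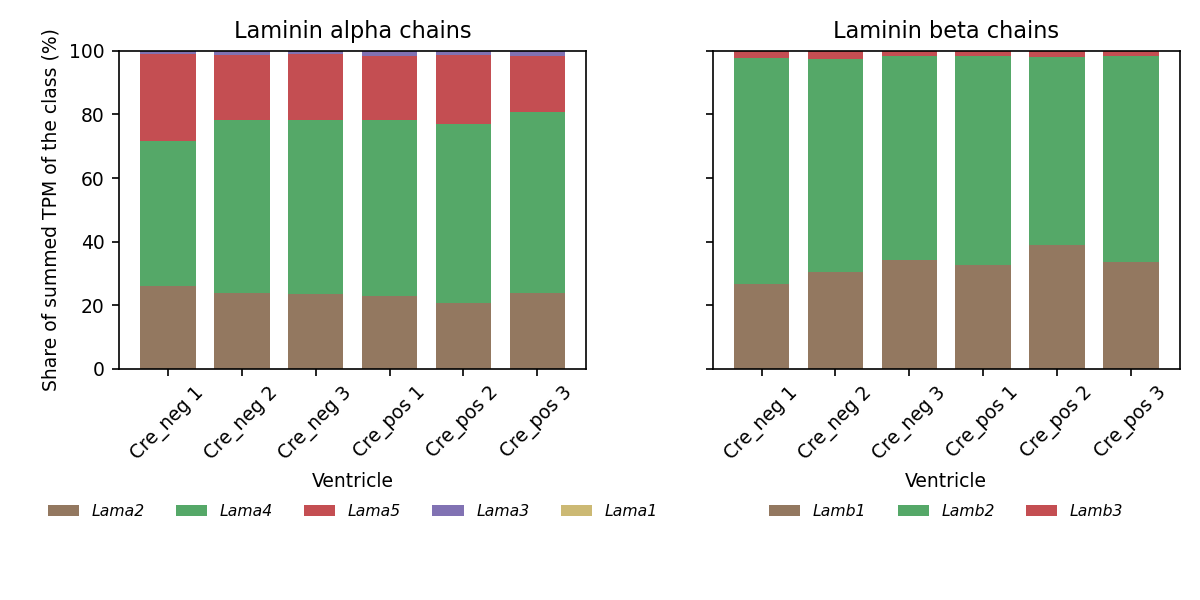
Share of each chain in the summed TPM of all laminin alpha chains (left) and beta chains (right), in percent, with 1 stacked bar per ventricle. *Lama4* runs from 45.4% in Cre_neg replicate 1 to 57.1% in Cre_pos replicate 3, and *Lamb2* from 71.2% in Cre_neg replicate 1 to 59.2% in Cre_pos replicate 2.

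The 10 genes had part of their pattern over the ventricles in common. Of the 10, 7 had their lowest normalised count in Cre_neg replicate 1, the exceptions being *Lama2*, *Lama5* and *Lamb2*, and 5 had their highest in Cre_pos replicate 2. The median of their centred log2 values, that is log2 CPM (counts scaled to library size) minus each gene's mean over the ventricles, was -0.19, -0.06 and 0.02 in Cre_neg replicates 1 to 3 and 0.05, 0.13 and 0.08 in Cre_pos replicates 1 to 3. *Lamc1* followed this median most closely, with a root mean square difference of 0.0289 over the 6 ventricles, and *Lama5* least, with 0.218. Without Cre_neg replicate 1 the median log2 fold change of the 10 genes was 0.11, 1 gene (*Nid2*) was higher at an unadjusted p under 0.05, beside 3.58% of all genes, and the groups did not overlap for 4 genes, beside 12.1% of all genes. Without Cre_pos replicate 2 none of the 10 had an unadjusted p under 0.05 in edgeR, beside 1.76% of all genes that were higher. The count was 1, again *Nid2*, without Cre_pos replicate 1 (beside 2.13%) or 3 (beside 2.01%), and without Cre_neg replicate 3 it was 2 but comprised *Lama4* and *Lamb1* (beside 4.07%).

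**Figure D5:**
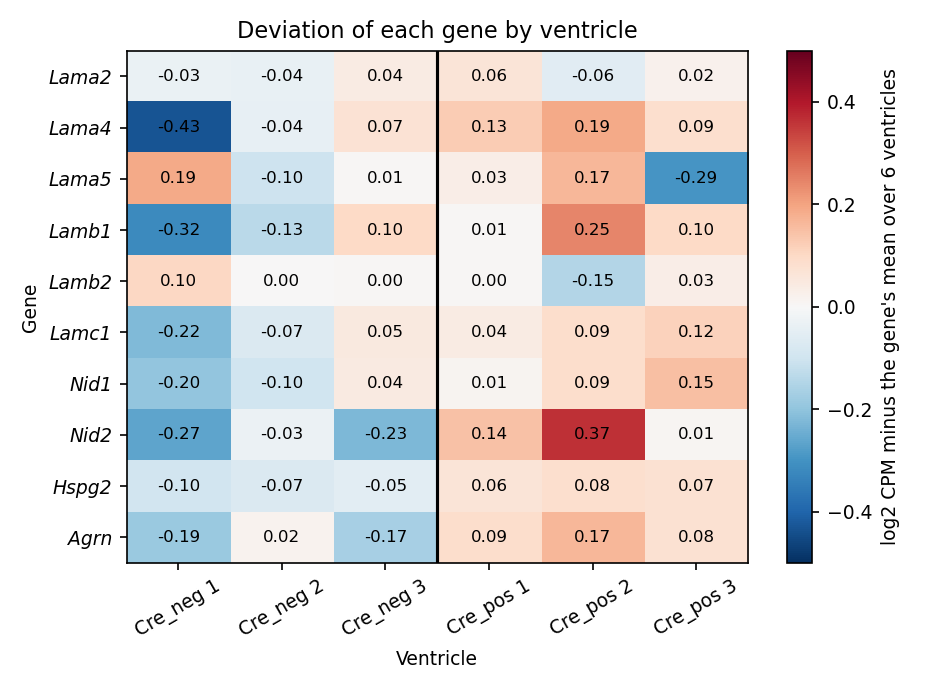
Deviation of each gene from its own mean over the 6 ventricles, in log2 CPM, with ventricles in columns and the groups divided by a black line. Cre_neg replicate 1 is below the mean for 8 of the 10 genes and Cre_pos replicate 2 above it for 8.

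The 5 genes outside the group whose pattern over the 6 ventricles was nearest to this median were *Vwa1*, *Man2a1*, *Spcs2*, *Ganab* and *Lats1*, out of 10787 genes that varied at least as much. Their root mean square differences from the median were 0.0208, 0.0219, 0.0224, 0.0237 and 0.0240 in log2 CPM. Their log2 fold changes ran from 0.14 for *Ganab* to 0.19 for *Vwa1*. They were picked for this likeness, so the values describe them and test nothing.

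Other laminin chains were scarce in these ventricles, and *Lama3* and *Lamc3* had larger log2 fold changes than any of the 10 genes, from far fewer counts. *Lama3* had 0.68, 1.07 and 1.13 TPM in Cre_neg and 1.57, 1.34 and 1.77 TPM in Cre_pos, without overlap, and a log2 fold change of 0.63 (SE 0.22, unadjusted p = 0.0229, adjusted p = 0.714, edgeR). *Lamc3* had 0.82, 0.51 and 0.65 TPM in Cre_neg and 1.40, 1.02 and 1.11 TPM in Cre_pos, from at most 65 counts in a ventricle, with a log2 fold change of 0.71 (SE 0.30, unadjusted p = 0.0451, adjusted p = 0.714, edgeR). *Lamb3* had a log2 fold change of -0.25 (SE 0.16), and its groups overlapped. *Lama1*, the chain of the early embryo, was not tested at 3 to 19 counts per ventricle. Of the 4 chains tested, 2 were higher at an unadjusted p under 0.05 in edgeR, beside 2.85% of all genes, and 0 passed the adjusted test. Alongside them, the 4 epicardial markers summed to between 24.1 and 93.2 TPM in Cre_neg and between 63.2 and 131 TPM in Cre_pos, with *Upk3b* the highest. Their median log2 fold change was 0.64, or 1.45 without Cre_neg replicate 1, where the sum was 93.2 TPM, and their part in these values was not tested.

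Type IV, XV and XVIII collagens, which nidogen and perlecan tie to laminin, all had positive log2 fold changes, 8 of 8 tested, with a median of 0.30 that was 0.15 without Cre_neg replicate 1. Over all genes tested, 51.2% had a positive value and 2.85% were higher at an unadjusted p under 0.05 in edgeR. None of the 8 collagens passed the adjusted test and 1 had an unadjusted p under 0.05. This was *Col4a5*, at a mean of 22.5 TPM, with a log2 fold change of 0.25 (SE 0.09, unadjusted p = 0.0257, adjusted p = 0.714, edgeR). *Col4a1*, the most abundant at 514 TPM on average, had a log2 fold change of 0.25 (SE 0.14), and *Col15a1*, a collagen of the outer face of the basement membrane, one of 0.45 (SE 0.25). Of 18 other basement membrane proteins, 12 had a positive and 6 a negative value with a median of 0.13, and none reached an unadjusted p under 0.05. The nearest were *Vwa1*, a perlecan-binding protein, at 0.19 (SE 0.08) and *Pxdn*, the peroxidase that crosslinks type IV collagen, at 0.39 (SE 0.18). *Sparc*, a collagen-binding protein at a mean of 2654 TPM, had a log2 fold change of 0.26 (SE 0.16).

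The receptors that hold laminin and agrin on the cell had values of both signs. Of 15 tested (*Musk* was too low), 10 had a positive log2 fold change and 5 a negative one, with a median of 0.12, and none passed the adjusted test. *Itga1*, an integrin chain that binds collagen and laminin, was at 0.27 (SE 0.10, unadjusted p = 0.0247, adjusted p = 0.714, edgeR), and *Sdc1*, a cell-surface heparan sulfate proteoglycan, at 0.36 (SE 0.16, unadjusted p = 0.0562). *Cd151*, the tetraspanin that partners laminin-binding integrins and the most abundant of the list at 361 TPM, was at -0.06 (SE 0.15). Dystroglycan is joined to the cytoskeleton by the dystrophin complex, and 8 of its 10 genes had negative values with a median of -0.11. The sarcoglycan *Sgca*, at -0.37 (SE 0.14, unadjusted p = 0.0347, adjusted p = 0.714, edgeR), had the smallest p and the highest mean TPM of the list, and none passed the adjusted test. These genes are expressed in cardiomyocytes, whose 8 markers all had negative values, with a median of -0.31 that was -0.15 without Cre_neg replicate 1. Cardiomyocyte markers summed to between 36043 and 40068 TPM in Cre_neg and between 29797 and 34518 TPM in Cre_pos, with *Myl2* the highest, and their part in the values of the dystrophin complex was not tested. Genes that build the laminin-binding sugar of dystroglycan had a median of -0.03, which was 0.04 without Cre_neg replicate 1, with 5 of 12 positive, and no unadjusted p under 0.05. The smallest were for *Pomt2* at 0.24 (SE 0.12) and *Rxylt1* at -0.17 (SE 0.13), and the most abundant, *Pomgnt1*, was at 0.08 (SE 0.08).

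Perlecan and agrin carry heparan sulfate chains, and of 17 genes that build or edit these chains 13 had positive log2 fold changes, with a median of 0.12. *Sulf1*, a sulfatase that removes sulfate from heparan sulfate outside the cell, was at 0.37 (SE 0.11, unadjusted p = 0.0119), and *Glce*, the epimerase of the chain, at 0.27 (SE 0.11, unadjusted p = 0.0401), both with an adjusted p of 0.714 in edgeR. *Sulf2*, the more abundant sulfatase at 115 TPM on average, was at -0.03 (SE 0.09). Of 11 proteases tested that can cut basement membrane components (*Prss12* was too low), 8 had positive values with a median of 0.03, which was 0.18 without Cre_neg replicate 1, and none reached an unadjusted p under 0.05. *Adamts4* was at 0.50 (SE 0.22), *Bmp1*, which trims laminin chains and the end of perlecan, at 0.27 (SE 0.12), and *Ctss*, the most abundant at 471 TPM, at 0.01 (SE 0.30).

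Markers of the cells that make basement membrane were examined beside these values, and their part in them was not tested. The 8 endothelial markers summed to between 607.9 and 749.5 TPM in Cre_neg and between 734 and 834 TPM in Cre_pos, with *Cdh5* the highest, and their median log2 fold change was 0.05, or 0.0063 without Cre_neg replicate 1. The 8 mural cell markers, with *Acta2* the highest, summed to 649, 1102 and 1213 TPM in Cre_neg and to between 1124 and 1348 TPM in Cre_pos, with a median log2 fold change of 0.17, or 0.08 without Cre_neg replicate 1. The 7 fibroblast markers, with *Col1a1* the highest, summed to 4501, 7248 and 6459 TPM in Cre_neg and to between 7245 and 8323 TPM in Cre_pos, with a median log2 fold change of 0.12 with or without Cre_neg replicate 1. In these 3 lists, as in 7 of the 10 basement membrane genes, Cre_neg replicate 1 was the lowest ventricle, and it was also the lowest for the macrophage markers and for the sums of the basement membrane collagens, heparan sulfate genes and proteases. The neutrophil markers went the other way, with a sum of 420.5 TPM in Cre_neg replicate 1 and 52.2 to 160.5 TPM in the other 5 ventricles, *S100a9* being the highest. Macrophage markers, led by *Lyz2*, summed to between 2372 and 3862 TPM in Cre_neg and 3193 and 3673 TPM in Cre_pos. Schwann cell markers were low throughout, at 5.02 to 9.47 TPM in sum. The skeletal muscle list summed to 3256 to 4442 TPM, mostly from *Acta1* and *Ckm*, at means of 1884 and 1801 TPM. *Tnnt3*, a troponin of fast skeletal muscle in the same list, had a mean of 24.7 TPM and a log2 fold change of 1.22 (SE 0.75). *Myh4* was at 0.75 TPM in Cre_pos replicate 1 and at 0 TPM in every other ventricle. No marker in any list was at 0 in all 6 ventricles.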

How the data were processed

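RNA of 6 left ventricles (3 Cre_pos, 3 Cre_neg, grouped by their labels) was extracted with TRIzol and made into libraries by BGI Americas. The submitters' processing notes name Bowtie2 2.2.5, RSEM 1.2.12 and GRCm38.p6. The authors deposited estimated counts per gene, which are not normalised and of which 11.0% to 11.8% per ventricle are not whole, and TPM values scaled by the authors to 1000000 per ventricle. The deposited FPKM values (6 columns), 6 columns of group means and the authors' own comparison made with DESeq2 were not used.

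Estimated counts were rounded and fitted with edgeR 4.0.16 in R 4.3.3 (filterByExpr, minimum count 10 and minimum total 15; TMM; quasi-likelihood test, no covariate; Benjamini-Hochberg over 13817 genes; threshold 0.05). The TMM factor was 0.921 in Cre_neg replicate 1 and 0.995 to 1.04 in the others. Intervals are 95% and rest on the fitted dispersion of the 6 ventricles. The procedure was tested on simulated counts. The changes simulated there were larger than those fitted for any of the 10 genes. Counts ranged from 706 to 17067 per ventricle for the 10 genes. Coordinates and promoters are from RefSeq for GRCm38.p6.

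Named are all 10 genes; from each pathway list genes past the threshold, otherwise the 2 with the smallest unadjusted p and the highest by mean TPM; from each marker list the highest and any at 0; and the 5 nearest in pattern. A few genes that this rule names are not reported here. Other laminin chains and genes that overlap or were targeted are named beside these. The members and lists were chosen with earlier results of these data known. Alternatives were other scalings, filters, DESeq2 1.42.0, limma 3.58.1 on log2(TPM + 1) or log2(TPM + 0.1), leaving out each ventricle, and a replicate block.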

Additional observations from a re-analysis of the deposited data

How the results depend on the processing

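None of the 10 genes passed an adjusted p of 0.05 under any of the 14 alternatives (edgeR, DESeq2 or limma), and the lowest adjusted p among them was 0.509. Over all genes, where 1 passed, 5 passed in the DESeq2 Wald test, 2 in limma on log2(TPM + 1) and 2 on log2(TPM + 0.1), and between 0 and 2 when each ventricle in turn was left out. With a replicate block 0 genes passed, beside 522 higher and 695 lower at an unadjusted p under 0.05 in edgeR. Same-numbered ventricles had correlations of their deviations of 0.35, 0.07 and -0.03, so the numbers were not taken to pair the ventricles, and under the block *Nid2* and *Agrn* kept unadjusted p-values of 0.00701 and 0.0406. The median log2 fold change of the 10 genes was 0.28 in limma on log2(TPM + 1) and 0.28 on log2(TPM + 0.1), where the median of all genes was 0.11 and 0.12, and it lay between 0.111 and 0.283 over all alternatives. The number of genes with an unadjusted p under 0.05, an alternative count chosen after seeing the data, was 3 in the DESeq2 Wald test (*Nid2*, *Hspg2* and *Agrn*), beside 2.35% of all genes higher, 4 in limma on log2(TPM + 1) and 4 on log2(TPM + 0.1), beside 6.37% and 6.17%, and between 0 and 2 with a ventricle left out. In TPM the groups also did not overlap for *Lama2*, giving 5 genes in place of 4, beside 2068 of all 13817 genes on that scale. Of 140 log2 fold changes of single genes under the alternatives, 133 kept their sign. The 7 that did not were *Lama2* without Cre_pos replicate 1 (range with a ventricle left out -0.0083 to 0.051), *Lama5* without Cre_neg replicate 1 or Cre_pos replicate 3 (range -0.157 to 0.0641), and the limma fits on log2(TPM + 1) and log2(TPM + 0.1), which gave 0.0514 and 0.0529 for *Lama5* and 0.0434 and 0.0437 for *Lamb2*, all below the shift of all genes. The differences in the shares of *Lama2*, *Lama4*, *Lama5* and *Lamb2* kept their sign with member chains only and with each ventricle left out, though with a ventricle left out that of *Lama5* ranged from -4.27 to -0.812 percentage points, that of *Lama4* from 1.51 to 6.25, that of *Lama2* from -2.62 to -1.06 and that of *Lamb2* from -6.04 to -2.38. The cause of these changes was not tested, and the number of ventricles limits what could be detected.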
